A study of Mus musculus with 12 samples.

Results

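*Hnf4a*, *Foxa1*, *Foxa2*, *Foxa3*, *Cebpa*, *Nr1h4*, *Onecut1*, *Prox1* and *Hhex* encode transcription factors of the hepatocyte, the parenchymal cell of the liver. These 9 genes were taken by symbol from the 23420 genes listed in the count tables of 2 mouse lines, by a list of names and not by a threshold on measured values. All 9 were present in both tables. RNA was sequenced from whole embryos of embryonic day 12.5 (E12.5 hereafter), and reads were counted per gene. The *Carm1* line, labelled C57BL/6, gave 3 *Carm1* KO/KO embryos, which carry the null allele *Carm1* tm1Mtb on both chromosomes, and 3 wild-type embryos. The *Pax3* line, of mixed strain, gave 3 *Pax3* Sp2H/Sp2H embryos, labelled *Pax3* null, and 3 wild-type embryos. *Carm1* is an arginine methyltransferase that acts as a transcriptional coactivator, and *Pax3* is a paired-box factor of the neural tube, neural crest and somites. Both alleles are germline mutations present in every cell, the embryos came from crosses between heterozygotes, and the lines differ in strain and in the laboratory that kept the mice. Litters are not given in the labels, so P values measure the spread between these embryos only.

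Hepatocytes arise when foregut endoderm buds into the septum transversum and becomes the hepatoblast, a precursor of hepatocytes and bile duct cells. The Foxa factors open chromatin at liver genes, *Hhex* and *Prox1* are needed for the bud to form and spread, and *Onecut1*, *Hnf4a* and *Cebpa* act in a network in which the factors bind each other's promoters and enhancers. At midgestation the liver is also the main site of blood formation. None of the 9 genes is restricted to liver: *Hnf4a* is also expressed in gut and kidney epithelium, *Foxa1* and *Foxa2* in lung, gut and floor plate, *Prox1* in lymphatic endothelium, lens and nervous system, *Onecut1* in neurons, *Hhex* in thyroid and endothelium, and *Cebpa* in myeloid and fat cells. In RNA of a whole embryo, fewer cells of a type and less RNA per cell cannot be told apart.

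The promoters of *Hnf4a* are shown because it had the largest called change among the 9 genes and because its count adds up transcripts from separate promoters, which a count per gene cannot tell apart. RefSeq gives it 2 windows, each running from 250 bases before a start site to 50 after it, on the plus strand of GRCm38.p6, with start sites 40.3 kb apart. The upstream window lies at chr2:163506607-163506906 and the downstream window at chr2:163546905-163547204. Capitals mark the letters that matched one of the motifs searched on both strands.
Hnf4a upstream promoter: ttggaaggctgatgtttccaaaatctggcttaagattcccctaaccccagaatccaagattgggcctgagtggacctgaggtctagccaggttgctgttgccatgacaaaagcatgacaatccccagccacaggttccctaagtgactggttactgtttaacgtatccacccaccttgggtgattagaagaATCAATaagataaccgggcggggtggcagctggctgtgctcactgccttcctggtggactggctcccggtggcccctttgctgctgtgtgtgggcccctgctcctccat
Hnf4a downstream promoter: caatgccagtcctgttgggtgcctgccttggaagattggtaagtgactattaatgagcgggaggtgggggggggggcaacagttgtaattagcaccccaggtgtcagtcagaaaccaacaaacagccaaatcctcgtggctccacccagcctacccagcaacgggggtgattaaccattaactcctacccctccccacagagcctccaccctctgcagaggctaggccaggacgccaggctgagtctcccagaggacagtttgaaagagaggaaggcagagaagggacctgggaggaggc
The upstream window holds ATCAAT, the letters searched for ONECUT factors, starting 59 bases before the start site. The downstream window held no match to the letters searched. Among 32851 promoter windows of this length, 7.54% hold ATCAAT. Neither *Hnf4a* window holds CAAAGTC (HNF4, in 4.44% of windows), TGTTTAC or TGTTTGC (FOXA, 8.48%) or TTGCNNAA (CEBP, 10.8%). All 9 genes had at least 1 window, and matches in the other 8 genes were a FOXA match in *Foxa1* and in *Prox1* and an ONECUT match in *Foxa2*. These matches describe letters only.

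Libraries held 17183344 to 23518692 counts, and correlations of log2 CPM (counts scaled to library size) between replicate libraries were 0.992 to 0.996. In all, 4 libraries held at least 100 Y-linked counts: *Carm1* wild-type replicate 3, *Pax3* Sp2H/Sp2H replicate 3, and *Pax3* wild-type replicates 2 and 3. The targeted genes followed the labels. *Carm1* was at 72.3 ± 3.55 CPM (SD, n = 3) in KO/KO mutants and 144 ± 6.99 CPM (n = 3) in wild-type embryos, and *Pax3* was at 20.8 ± 2.40 CPM in *Pax3* Sp2H/Sp2H and 28.1 ± 2.99 CPM in wild-type embryos, without overlap in either line. Genes were called at a P below 0.05 from the quasi-likelihood test of edgeR after Benjamini-Hochberg adjustment, written here as the edgeR adjusted P. By this rule 13.3% of 15811 genes tested were called in the *Carm1* line and 24.5% of 15724 in the *Pax3* line. In the *Carm1* line 868 genes were higher and 1238 lower in the mutant, and with the length and GC offsets (corrections for transcript length and base composition) 1907 were higher and 1293 lower.

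Of the 9 hepatocyte factors, 8 had enough counts to be tested in each line, and *Nr1h4* did not. In the *Carm1* line 2 of the 8 were called, *Hnf4a* and *Cebpa*, both lower in *Carm1* KO/KO embryos, and the other 6 did not pass. In the *Pax3* line none of the 8 was called by edgeR's quasi-likelihood test, 4 had an unadjusted P below 0.05 in that test (against 36.5% of all genes tested), and DESeq2 called none. The median log2 fold change of the 8 genes was -0.08 in the *Carm1* line and 0.25 in the *Pax3* line, against 0.00 and -0.00 over all genes tested. The ranges of mutant and wild-type libraries were separate for 4 of the 8 in the *Carm1* line (*Hnf4a*, *Cebpa*, *Foxa2* and *Foxa3*), where 30.0% of all genes tested were so separated, and for 4 of the 8 in the *Pax3* line (*Hnf4a*, *Cebpa*, *Prox1* and *Hhex*), where it was 39.6%.

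**Figure D1:**
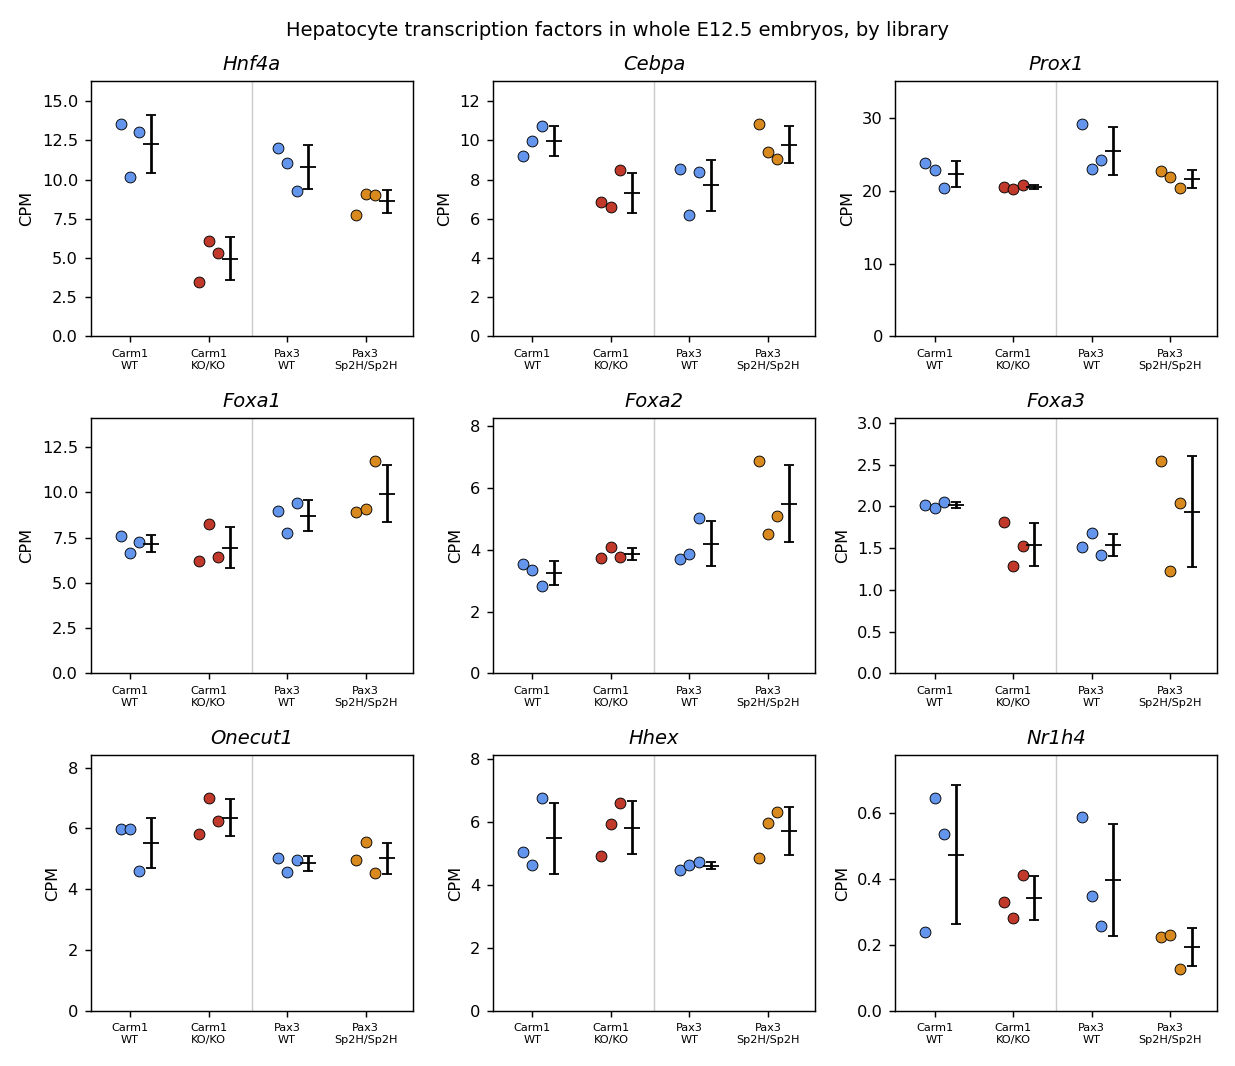
Each panel shows 1 factor, with CPM on the vertical axis from 0 and the 4 groups on the horizontal axis. Circles are single libraries in the order of replicates 1 to 3, and the bar beside them is the mean with SD. *Hnf4a* in *Carm1* KO/KO embryos lay between 3.46 and 6.11 CPM, below the 10.2 to 13.6 CPM of their wild-type embryos, whereas *Nr1h4* stayed below 1 CPM in every library.

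*Hnf4a*, an orphan nuclear receptor at the centre of the hepatocyte network (chr2:163506808-163572910, plus strand), held 63, 109 and 90 counts in KO/KO embryos of the *Carm1* line and 229, 237 and 268 in its wild-type embryos. Scaled to library size these were 3.46, 6.11 and 5.30 CPM against 13.6, 10.2 and 13.1 CPM. Every *Carm1* KO/KO library was below every wild-type library by a wide gap, and replicate 1 was the lowest of the mutants. The means were 4.96 ± 1.36 CPM (SD, n = 3) and 12.3 ± 1.83 CPM (n = 3), so that wild-type embryos held 2.47 times as much (95% interval 1.97 to 3.09). The log2 fold change was -1.30 (SE 0.16, edgeR adjusted P = 2.09e-06), rank 114 by P among all genes tested. It kept its direction and its call in all 16 alternatives tried for the *Carm1* line, between -1.48 and -1.09.

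In the *Pax3* line *Hnf4a* was at 7.73, 9.06 and 9.04 CPM in Sp2H/Sp2H embryos and at 12.1, 11.1 and 9.28 CPM in wild-type embryos. The mutants again lay below, but the highest mutant and the lowest wild type were close together. The log2 fold change was -0.32 (SE 0.12, 95% interval -0.57 to -0.07, edgeR adjusted P = 0.0525), just short of the threshold, and 5 of 16 alternatives put it past the threshold. Without *Pax3* wild-type replicate 3 it was -0.42 (edgeR adjusted P = 0.0190) and without wild-type replicate 1 it was -0.23 (0.237).

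The difference between the lines was tested in one fit of all 12 libraries, as the log2 fold change in the *Carm1* line minus that in the *Pax3* line. For *Hnf4a* it was -0.97 (SE 0.21, 95% interval -1.41 to -0.54, edgeR adjusted P = 0.00175), so the fall in *Carm1* KO/KO embryos was larger than the shift in *Pax3* Sp2H/Sp2H embryos. Of 16292 genes in this fit, 19.1% passed the threshold, and of the 9 hepatocyte factors 2 did, *Hnf4a* and *Cebpa*. Both passed in all 21 alternatives of that fit. For the factors that did not pass, the intervals of the difference were -0.59 to 0.17 for *Foxa1*, -0.62 to 0.40 for *Foxa2*, -0.25 to 0.59 for *Onecut1*, -0.13 to 0.39 for *Prox1* and -0.67 to 0.24 for *Hhex*, and those of *Foxa3* and *Nr1h4* were wider. Strain and laboratory cannot be told apart from the mutation in this difference.

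*Cebpa* encodes a basic leucine zipper factor that drives metabolic genes of the hepatocyte and restrains its proliferation (chr7:35119293-35121928, plus strand). It was at 6.86, 6.61 and 8.48 CPM in KO/KO mutants and at 9.19, 9.97 and 10.7 CPM in wild types. All mutants were lower, with a narrow gap between mutant replicate 3 and wild-type replicate 1. The means were 7.32 ± 1.02 CPM (SD, n = 3) and 9.96 ± 0.767 CPM (n = 3), a log2 fold change of -0.45 (SE 0.13, 95% interval -0.71 to -0.19, edgeR adjusted P = 0.0150). This call was lost in 7 of 16 alternatives, though the direction held in all of them. The adjusted P was 0.0578 in DESeq2, 0.0533 with a term for Y-linked counts in edgeR and 0.289 with that term in DESeq2. It was 0.0833 without *Carm1* KO/KO replicate 1, 0.0970 without KO/KO replicate 2, 0.0531 without wild-type replicate 2 and 0.0553 without wild-type replicate 3, all in edgeR.

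Mutants and wild types of the *Pax3* line stood in the opposite order. *Cebpa* was at 10.9, 9.42 and 9.08 CPM in Sp2H/Sp2H libraries and at 8.54, 6.20 and 8.38 CPM in wild-type libraries, with all mutants above all wild types. The log2 fold change was 0.33 (SE 0.13, 95% interval 0.07 to 0.60, edgeR adjusted P = 0.0586), short of the threshold. With length and GC offsets it was 0.13 (0.569), and 0.34 without a filter on low counts (0.0360). The difference between the lines was -0.77 (SE 0.18, 95% interval -1.14 to -0.40, edgeR adjusted P = 0.00267). In the fit of 12 libraries with these offsets, an alternative added after the data had been seen, that difference was -0.59 (0.0223).

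**Figure D2:**
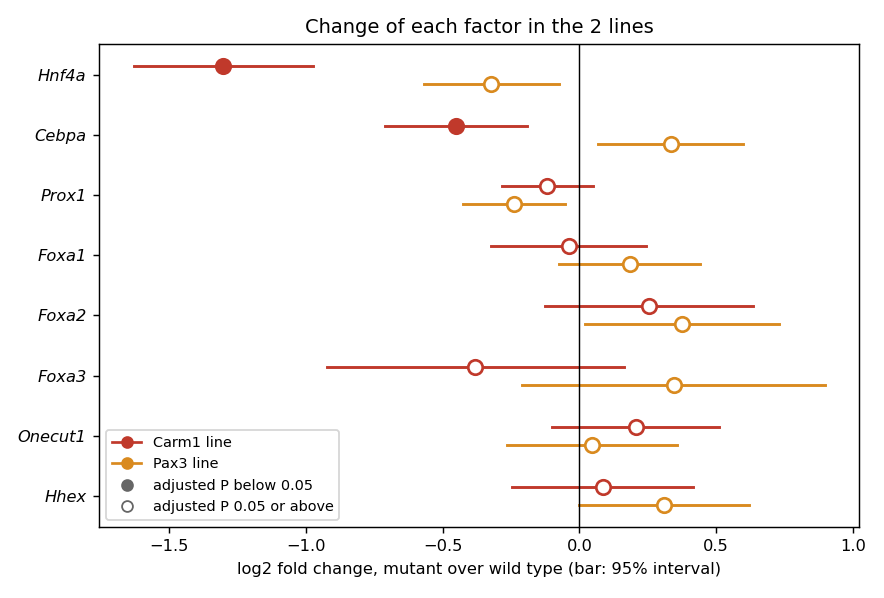
The log2 fold change of mutant over wild type is on the horizontal axis for the 8 factors tested, with the *Carm1* line in red, the *Pax3* line in orange, and bars for the 95% interval. Filled circles are the 2 calls, *Hnf4a* at -1.30 and *Cebpa* at -0.45 in the *Carm1* line, and among the 9 factors only for *Hnf4a* and *Cebpa* did the difference between the lines pass the threshold.

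The Foxa genes encode forkhead factors that bind nucleosomal DNA and give other factors access to liver enhancers. None of the 3 was called in either line. *Foxa1* (chr12:57540628-57546916, minus strand) was at 6.20, 8.23 and 6.42 CPM in KO/KO mutants against 7.59, 6.66 and 7.26 CPM in wild-type libraries, and the groups overlapped. Its log2 fold change was -0.04 (95% interval -0.32 to 0.24, edgeR adjusted P = 0.895), and the sign turned without KO/KO replicate 1 or 3 or wild-type replicate 1. Its values among *Pax3* embryos were 8.94, 9.11 and 11.8 CPM in Sp2H/Sp2H libraries against 8.98, 7.76 and 9.41 CPM, a log2 fold change of 0.18 (95% interval -0.07 to 0.44, edgeR adjusted P = 0.308). Without *Pax3* Sp2H/Sp2H replicate 3 it was 0.041 (0.876).

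*Foxa2* (chr2:148042877-148046969, minus strand), which also marks the floor plate, was at 3.73, 4.09 and 3.77 CPM in KO/KO mutants against 3.56, 3.35 and 2.83 CPM in wild-type libraries. The mutants were above the wild types without overlap, by a log2 fold change of 0.25 that did not pass the test (95% interval -0.13 to 0.64, edgeR adjusted P = 0.418). Among *Pax3* embryos *Foxa2* was at 6.88, 4.51 and 5.09 CPM in Sp2H/Sp2H and 3.71, 3.88 and 5.03 CPM in wild-type libraries, a log2 fold change of 0.37 with overlapping groups (95% interval 0.02 to 0.73, edgeR adjusted P = 0.116). Mutant replicate 1 was the highest of these 6 libraries. Without *Pax3* wild-type replicate 3 the value was 0.54 (edgeR adjusted P = 0.0489), and without mutant replicate 1 it was 0.18 (0.560).

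*Foxa3*, the latest of the 3 Foxa genes to appear in liver (chr7:19013284-19023538, minus strand), had few counts. Mutants of the *Carm1* line held 33, 23 and 26 counts and wild types 34, 46 and 42, or 1.81, 1.29 and 1.53 CPM against 2.02, 1.98 and 2.05 CPM. All mutants were lower, and the log2 fold change of -0.38 did not pass the test (95% interval -0.92 to 0.16, edgeR adjusted P = 0.390). Among *Pax3* embryos *Foxa3* was at 2.55, 1.23 and 2.04 CPM in Sp2H/Sp2H and 1.51, 1.68 and 1.42 CPM in wild-type libraries. Mutant replicate 2 was the lowest and the other mutants the highest of the 6, and the log2 fold change was 0.34 (95% interval -0.21 to 0.90, edgeR adjusted P = 0.381). It was 0.10 without mutant replicate 1 (0.860) and 0.58 without mutant replicate 2 (0.144). The interval of the difference between the lines for *Foxa3*, -1.47 to 0.04 (estimate -0.71, edgeR adjusted P = 0.184), is the widest among the 8 factors tested in both lines, at its counts of 23 to 57 per library.

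*Onecut1* (HNF6, chr9:74861921-74891781, plus strand) encodes a cut-homeodomain factor that acts early in liver and bile duct and also in spinal neurons. It was at 5.82, 7.00 and 6.25 CPM in KO/KO mutants against 5.99, 5.98 and 4.58 CPM in wild-type libraries, with overlap. The log2 fold changes were 0.21 in the *Carm1* line (95% interval -0.10 to 0.51, edgeR adjusted P = 0.416) and 0.05 in the *Pax3* line (95% interval -0.27 to 0.36, edgeR adjusted P = 0.863). Without *Carm1* wild-type replicate 3 the first was 0.087 (0.798), and with the Y-linked term it was also 0.087 (0.800). Among the *Pax3* libraries, values of 4.54 to 5.55 CPM in Sp2H/Sp2H and 4.57 to 5.03 CPM in wild-type embryos were interleaved.

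*Prox1* (chr1:190118035-190170714, minus strand), a homeobox factor needed for hepatoblasts to leave the liver bud and for lymphatic vessels to form, had the highest CPM of the 9 in all 4 groups. It was at 20.6, 20.3 and 20.8 CPM in KO/KO mutants against 23.8, 22.8 and 20.4 CPM in wild-type libraries. The lowest wild type lay within the mutants, and the log2 fold change was -0.12 (95% interval -0.28 to 0.05, edgeR adjusted P = 0.388). *Prox1* in the *Pax3* line was at 22.7, 21.9 and 20.3 CPM in Sp2H/Sp2H and 29.2, 23.0 and 24.2 CPM in wild-type libraries. All mutants were lower, by a log2 fold change of -0.24 that fell short of the threshold (95% interval -0.43 to -0.05, edgeR adjusted P = 0.0562). In 5 of 16 alternatives *Prox1* passed it, with -0.31 (0.00824) when Y-linked counts were a term in edgeR, whereas with length and GC offsets it was -0.11 (0.412). Without *Pax3* wild-type replicate 2 it was -0.30 (edgeR adjusted P = 0.0360).

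*Hhex* (chr19:37434810-37440731, plus strand), a homeobox factor of the earliest liver bud, was at 4.94, 5.94 and 6.60 CPM in KO/KO mutants against 5.04, 4.64 and 6.78 CPM in wild-type libraries. These groups overlapped throughout, and the log2 fold change was 0.08 (95% interval -0.25 to 0.42, edgeR adjusted P = 0.795). *Hhex* in the *Pax3* line was at 4.87, 5.96 and 6.32 CPM in Sp2H/Sp2H and at 4.49, 4.63 and 4.73 CPM in wild-type libraries. All mutants were higher, by a log2 fold change of 0.31 that did not pass (95% interval -0.00 to 0.62, edgeR adjusted P = 0.138).

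*Nr1h4* (FXR, chr10:89454234-89533585, minus strand), the bile acid receptor, was at the limit of this depth. In the *Carm1* line it held 6, 5 and 7 counts in mutants against 4, 15 and 11 in wild types, and 5, 5 and 3 counts in the *Pax3* Sp2H/Sp2H libraries against 12, 6 and 6. The *Carm1* groups overlapped and the *Pax3* groups did not. It was not tested within either line, and in the fit of all 12 libraries the difference between the lines was 0.51 (edgeR adjusted P = 0.703). Of 10 genes of bile acid handling, including FXR targets, only 3 had enough counts to be tested in each line, and *Cyp7a1* and *Cyp8b1*, the enzymes that open and branch bile acid synthesis, were among those too low.

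Per kilobase of exon, *Cebpa* was the highest of the 9 in *Carm1* wild-type embryos at 3.78 ± 0.291 CPM per kb (SD, n = 3), followed by *Prox1* at 2.66 ± 0.208, *Hnf4a* at 2.54 ± 0.379 and *Foxa1* at 2.16 ± 0.141. These 3 overlapped as neighbours. *Foxa2*, *Onecut1*, *Hhex* and *Foxa3* followed at 1.37, 1.34, 1.09 and 0.989 CPM per kb, each overlapping the next, and *Nr1h4* was last at 0.205. In *Carm1* KO/KO embryos *Hnf4a*, at 1.03 ± 0.281 CPM per kb, was the 7th of the 9, below *Hhex* at 1.15 and above *Foxa3* at 0.758, and overlapped both. Among *Pax3* embryos *Hnf4a* was the 4th in wild-type embryos at 2.24 CPM per kb and the 5th in Sp2H/Sp2H embryos at 1.78, where *Foxa2* at 2.32 stood above it without overlap.

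Other liver genes were placed in hand-written lists, which are described here by counts and medians. Of 20 secreted hepatocyte products, 19 were tested. In the *Carm1* line 16 of the 19 were lower in the mutant and none was higher (DESeq2 called 17 lower and none higher), against 7.83% lower and 5.49% higher of all genes tested, and the median log2 fold change was -1.03. The 4 with the lowest P were the fibrinogen gamma chain *Fgg*, at 6.48 ± 0.857 against 16.1 ± 1.68 CPM (log2 fold change -1.31), antithrombin (*Serpinc1*, -1.27), transthyretin (*Ttr*, -0.56) and alpha-fetoprotein (*Afp*, -0.66). Albumin (*Alb*) fell from 514 ± 54.3 to 194 ± 28.8 CPM (log2 fold change -1.41, edgeR adjusted P = 0.00786). The 3 products that did not pass were *Ahsg* (-1.03), *Trf* (-0.21) and vitronectin (*Vtn*, 0.06). Among products in the *Pax3* line 3 were lower (*Trf* -0.33, *Afp* -0.38 and *Fga* -0.31) and 2 higher (*Apoa2* 0.70 and *Rbp4* 0.42), against 10.5% and 14.0% of all genes tested, and the median was -0.19. In the test of the difference between the lines, 13 of the 19 products passed the threshold with a lower log2 fold change in the *Carm1* line. None passed with a higher one, and 19.1% of all genes in that fit passed in either direction.

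Enzymes of the later liver were mostly too low to test at E12.5. Of 12, 4 were tested in the *Carm1* line and 3 were called lower, where 7.83% of all genes tested were. Among these 3 were glycogen synthase 2 (*Gys2*, -1.33) and ornithine transcarbamylase (*Otc*, -1.47), while arginase (*Arg1*) was at 0.25 and did not pass. In the *Pax3* line 6 were tested and 1, *Agxt*, was higher (0.77, edgeR adjusted P = 0.0365), where 14.0% of all genes tested were. The call of *Agxt* was lost in 8 of 16 alternatives. Among the bile acid genes *Abcb4*, the phospholipid flippase of the bile canaliculus, was at 6.46 ± 0.355 CPM in KO/KO mutants against 11.7 ± 0.770 CPM in wild-type embryos (log2 fold change -0.85, edgeR adjusted P = 5.09e-06), and none of the 3 tested passed in the *Pax3* line, where DESeq2 called none and none had an unadjusted P below 0.05 in edgeR.

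Other regulators of hepatic genes formed a list of 30, of which 27 were tested in the *Carm1* line. There 3 were higher and 4 lower, where 5.49% and 7.83% of all genes tested were, and the median log2 fold change was -0.06. The higher ones were all nuclear receptors of the COUP-TF family, *Nr2f1* at 154 ± 3.02 against 115 ± 2.26 CPM (log2 fold change 0.43), *Nr2f2* (0.18) and *Nr2f6* (0.19). The lower ones were *Atf5* (-0.29), the Wnt effector *Tcf7l2* (-0.20), *Nr5a2* (LRH-1, -0.71) and *Hlf* (-0.43), and the count of 7 became 1 without *Carm1* KO/KO replicate 1, 4 without wild-type replicate 2 and 3 in DESeq2 with a Y-linked term. Of the 28 tested in the *Pax3* line, 5 were higher (*Rxrb* 0.46, *Nr2f1* 0.35, *Nr2f6* 0.51, *Nr1h2* 0.27 and *Atf5* 0.29) and 1 lower (*Foxo1*, -0.33), and the median was 0.10. These 6 of 28 are a smaller share than the 24.5% called among all genes tested.

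**Figure D3:**
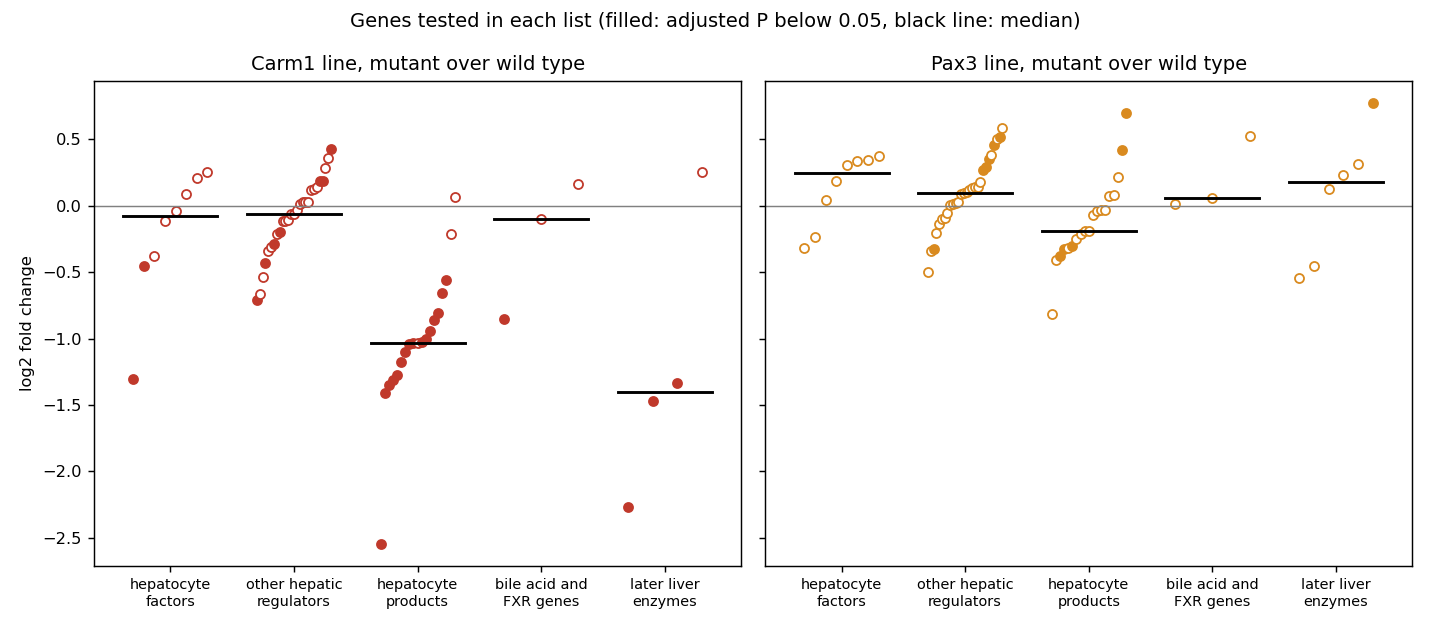
Each circle is a tested gene of 1 list, placed by its log2 fold change of mutant over wild type, with the *Carm1* line on the left and the *Pax3* line on the right. Filled circles passed the threshold and black lines are medians, which for hepatocyte products were -1.03 in the *Carm1* line and -0.19 in the *Pax3* line and for the 8 factors tested -0.08 and 0.25.

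Hepatocyte products and the 9 factors were set side by side within each library. The summed level of the 20 products was 990 to 1190 CPM in KO/KO mutants against 1762 to 2155 CPM in *Carm1* wild-type libraries, and 1131 to 1231 CPM in *Pax3* Sp2H/Sp2H and 1317 to 1600 CPM in *Pax3* wild-type libraries. The part of hepatocyte content in the fall of *Hnf4a* and *Cebpa* was not tested. Relative to the mean log2 CPM of the 19 products tested, *Hnf4a* was at -1.76 ± 0.20 in KO/KO mutants and -1.45 ± 0.14 in wild-type libraries (log2 scale, SD, n = 3), a difference of -0.31 with the groups just separate. The product mean itself was 4.17 in KO/KO mutants and 5.12 in *Carm1* wild-type libraries, a difference of -0.94, so that each difference here is a factor's own change in CPM with the 0.94 lost by the products added, and a factor with no change in CPM would lie 0.94 higher. The differences were 0.52 for *Cebpa*, 0.64 for *Foxa3*, 0.75 for *Nr1h4*, 0.83 for *Prox1*, 0.89 for *Foxa1*, 1.03 for *Hhex*, 1.14 for *Onecut1* and 1.17 for *Foxa2*. At the level of *Nr1h4* the pseudocount of 0.5 CPM used here is of the size of the value itself. These differences are a description, with no test. The corresponding differences in the *Pax3* line were -0.20 for *Hnf4a*, with overlap, and 0.44 for *Cebpa*, without overlap. *Foxa2* (0.45), *Hhex* (0.38) and *Foxa1* (0.28) were also without overlap there, whereas *Foxa3* (0.33), *Onecut1* (0.15), *Prox1* (-0.12) and *Nr1h4* (-0.25) overlapped. In the *Carm1* line the groups of every factor were separate on this scale, where the shift of the product mean enters each value. The share of all genes separate on this scale was not computed, so separation on it is not read as a result about the factors. The product mean itself differed by -0.11 in the *Pax3* line.

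**Figure D4:**
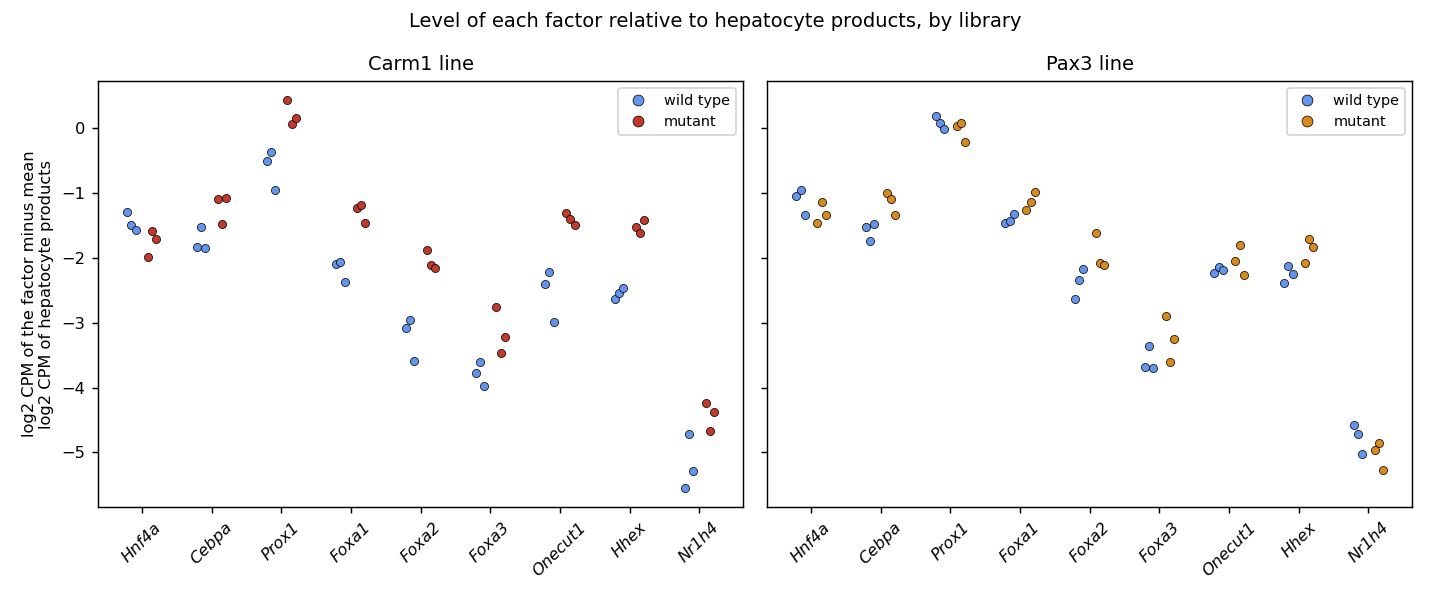
The vertical axis is the log2 CPM of each factor minus the mean log2 CPM of 19 hepatocyte products in the same library, with a pseudocount of 0.5 CPM, and each circle is a library. In the *Carm1* line the product mean differed by -0.94, so a factor with no change in CPM would have mutants 0.94 above wild types, and the mutants of *Hnf4a* lie below the wild types by 0.31 on average.

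Markers of other cell types that express some of the 9 genes were counted in the same fits, in which 13.3% of all genes tested were called in the *Carm1* line and 24.5% in the *Pax3* line. Of 8 floor plate markers, which share tissue with *Foxa1* and *Foxa2*, 4 were higher in *Carm1* KO/KO embryos (*Lmx1a*, *Shh*, *Spon1* and *Ntn1*) and their sum was 337 to 346 CPM against 291 to 305 CPM, whereas in the *Pax3* line 1 was higher and the sums overlapped. Of the foregut, lung and gut epithelium markers 2 of 7 tested were higher in *Carm1* KO/KO embryos, *Sox2* and *Shh*, and in the *Pax3* line 1 of 6 was higher. Their sums, 183 to 195 against 160 to 170 CPM and 202 to 221 against 180 to 192 CPM, were carried by *Sox2*, and without it they overlapped in both lines, at 77.8 to 88.0 against 75.7 to 86.7 CPM and 90.4 to 97.8 against 84.6 to 95.4 CPM. Lens markers, beside *Prox1*, had 1 lower of 6 in the *Carm1* line and 4 higher and 1 lower of 7 in the *Pax3* line, with sums of 17.3 to 39.8 against 41.4 to 43.8 CPM and 58.5 to 76.7 against 46.3 to 54.0 CPM. The 17.3 was *Carm1* KO/KO replicate 1 alone, and the other mutants were at 37.4 and 39.8. Lymphatic markers had 1 higher (*Pdpn*) and 1 lower (*Lyve1*) of 5 in the *Carm1* line and none called in the *Pax3* line, with 1 at an unadjusted P below 0.05 in edgeR and none in DESeq2, and the sums overlapped in both lines. Without *Nrp2*, the gene with the highest level, the sums were separate in both lines, in opposite directions. Mutants were higher in the *Carm1* line (101 to 107 against 88.1 to 94.6 CPM) and lower in the *Pax3* line (86.9 to 90.2 against 92.8 to 94.5 CPM). The higher sum in the *Carm1* line was carried by *Pdpn*, at 54.9 ± 1.62 CPM in KO/KO mutants against 39.0 ± 0.786 CPM in wild-type libraries. *Lyve1* was lower there, at 6.90 against 13.2 CPM, and *Flt4* and *Sox18* overlapped. In the *Pax3* line every lymphatic marker taken by itself overlapped.

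Motor and spinal neuron markers, beside *Onecut1*, had 1 higher (*Lhx3*) of 7 in the *Carm1* line, and 1 higher (*Lhx3*) and 1 lower (*Isl1*) of 7 in the *Pax3* line, with overlapping sums. Without *Isl1*, the gene with the highest level, the sums in the *Pax3* line were 84.3 to 86.2 CPM in Sp2H/Sp2H against 73.0 to 77.2 CPM in wild-type libraries, without overlap. In the *Carm1* line they still overlapped, at 60.2 to 67.5 against 56.7 to 63.8 CPM. Of 9 bile duct and hepatoblast markers *Krt7* was higher and *Dlk1* lower in the *Carm1* line, and their sum of 632 to 653 against 669 to 756 CPM was carried by *Dlk1*, without which it was 243 to 271 against 230 to 257 CPM, with overlap. Of 7 liver sinusoid and stellate markers tested, *Lyve1* was lower in the *Carm1* line, and both lists had no call in the *Pax3* line, where 2 and 1 genes had an unadjusted P below 0.05 in edgeR and DESeq2 called none and 1. Of 9 erythroid markers, whose cells fill the liver at this age, 6 were lower and 1 higher in the *Carm1* line and 1 was higher in the *Pax3* line, while the sums, carried by embryonic globins, overlapped in both lines. Without *Hbb-y*, the gene with the highest level, the sums were 2959 to 3356 CPM in *Carm1* KO/KO against 1810 to 2560 CPM in wild-type libraries, without overlap. In the *Pax3* line they still overlapped, at 2408 to 2836 against 2076 to 2851 CPM. The part of these cell types in the values of the 9 factors was not tested. Few of the defining markers were at 0: no gene of the hepatocyte product list other than *Apoc3*, and of the lists of other cell types only *Cdx1* and *Pdx1*, was at 0 in any library.

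Among the 3 genes whose pattern over the 12 libraries lay closest to *Hnf4a*, by the root mean square difference of log2 CPM centred on each line among 14793 genes, were *Fga* (0.146) and *Plg* (0.154). These encode a fibrinogen chain and plasminogen, both secreted by hepatocytes. Closest to *Cebpa* were *Gad1* (0.123), the enzyme of GABA synthesis, *Fgf11* (0.124) and *0610007N19Rik* (0.126).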

How the data were processed

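Whole E12.5 embryos gave 12 libraries of polyadenylated RNA, 3 per group, grouped by the sample labels. Per the labels and methods, the authors used STAR for alignment to mm10 and featureCounts for counting on exons. Raw counts per gene, without normalization, are what was deposited. Versions, strand setting and treatment of reads aligning to several places are not given in the sources used here, so counts of overlapping or duplicated genes are uncertain.

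Counts were tested within each line with edgeR (4.0.16, R 4.3.3), using filterByExpr, TMM and the quasi-likelihood test with robust dispersion, with Benjamini-Hochberg adjustment over all genes tested and a threshold of 0.05. Here edgeR was used in place of DESeq2, which the study names and which (1.42.0) was run as an alternative. CPM use TMM-scaled library sizes, SE is the log2 fold change divided by the root of the quasi-likelihood F, and intervals cover 95%. The difference between the lines was an interaction in one fit of 12 libraries. An exact permutation test of 3 against 3 libraries cannot go below P = 0.1.

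The 9 factors and the gene lists were chosen with earlier results of these data known, and support nothing by themselves. Named are the 9 factors, the targeted genes, genes called in a list and those with the lowest P in it, the 3 genes nearest in pattern to a called factor (mean of at least 1 CPM), and the leading markers. Other list members named (*Alb* and genes named as not called) were chosen after their values were seen. Alternatives were DESeq2, RLE and upper-quartile factors, no filter, a minimum of 10 counts, one fit of 12 libraries, the replicate number as a block, a Y-linked term (at least 100 counts) in edgeR and DESeq2, offsets for transcript length and GC content (splines with 5 degrees of freedom), and leaving out each library. Tests were first run on simulated counts with the same dispersion for every gene, which checks the code and not the calls in these data. Of the symbols, 21777 were found in GENCODE on GRCm38 (the build of mm10) as spelled, 1285 by an older symbol and 358 not at all. Exon lengths and gene coordinates come from it, and promoter windows from RefSeq. Protein sequences were not used here, and some genes that the rule names are not reported here.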

Additional observations from a re-analysis of the deposited data

Results flagged for a closer look

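For *Hnf4a* the log2 fold change differed between the lines, by -0.97 (*Carm1* line minus *Pax3* line, edgeR adjusted P = 0.00175 for the interaction), with the mutants lower than all wild types of their line in 6 of 6 mutant libraries. For *Cebpa* it differed by -0.77 (edgeR adjusted P = 0.00267), with 3 of 3 *Carm1* KO/KO libraries below and 3 of 3 *Pax3* Sp2H/Sp2H libraries above the wild types of their line. Mutant and wild-type ranges were separate for 30.0% of all genes tested in the *Carm1* line and 39.6% in the *Pax3* line. For *Hnf4a* in the *Pax3* line the highest mutant was at 9.06 CPM and the lowest wild type at 9.28 CPM. *Hnf4a* and *Cebpa* were the 2 of 9 factors that passed the test of the difference, where 19.1% of all genes did. Strain and laboratory differ between the lines and cannot be told apart from the mutations.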

How the results depend on the processing

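In the *Carm1* line *Hnf4a* kept its direction and call in all 16 alternatives (-1.48 to -1.09, adjusted P at most 0.000112). The number of factors called there went from 2 to 1 under DESeq2, under the Y-linked term in edgeR and in DESeq2, and was 1 to 2 over the libraries left out, because *Cebpa* lost its call (-0.45, -0.40 and -0.39 under those settings, -0.57 to -0.38 over the libraries left out). Values that were never called turned sign when single libraries were left out, *Foxa1* (-0.18 to 0.039) and *Hhex* (-0.032 to 0.27). Of all genes 864 were called in DESeq2 with the Y-linked term, 3200 with length and GC offsets, and 1224 to 2290 over the libraries left out, the lowest without KO/KO replicate 1. Other hepatic regulators called were 3 in DESeq2 with the Y-linked term and 1 to 9 over the libraries left out. In the *Pax3* line the number of factors called went from 0 to 1 with RLE factors (*Hnf4a* -0.33), with one fit of 12 libraries (*Prox1* -0.25), in DESeq2 with the Y-linked term (*Prox1* -0.31) and with length and GC offsets (*Hnf4a* -0.34), to 2 without a filter (*Hnf4a* -0.31, *Cebpa* 0.34) and with the Y-linked term in edgeR (*Hnf4a* -0.34, *Prox1* -0.31), and was 0 to 2 over the libraries left out (*Hnf4a* -0.42 to -0.23, *Prox1* -0.30 to -0.13, *Foxa2* 0.18 to 0.54). *Onecut1* turned sign at -0.0030 and -0.0056 with the Y-linked term in edgeR and DESeq2, and was -0.032 to 0.11 over the libraries left out. Genes called were 2454 to 4103 over the libraries left out, the lowest without mutant replicate 3. The later liver enzyme called became 0 under DESeq2, one fit of 12 libraries, the Y-linked term in edgeR and DESeq2, and length and GC offsets, and was 0 to 1 over the libraries left out. The difference between the lines for *Foxa2* turned sign at 0.057 with length and GC offsets and over the libraries left out (-0.27 to 0.083). The causes were not tested.

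Replicate numbers are shared by the groups, and the deviations of same-numbered libraries correlated by r -0.053, -0.0016 and -0.048 in the *Carm1* line and by 0.17, -0.079 and 0.25 in the *Pax3* line. Not every pair was above 0.1, so the numbers were not taken as pairs. With the replicate number as a block, 2 factors were called in each line (in the *Pax3* line *Cebpa* 0.34 and *Prox1* -0.23), the genes called moved from 2106 to 1787 and from 3851 to 4177, and not every library correlated best with its own number. Depth limits *Nr1h4*, which the filter removed. Where it could be fitted, its log2 fold change was -0.52 to -0.49 in the *Carm1* line and -1.03 to -1.01 in the *Pax3* line, at adjusted P of 0.192 or more.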
